A study of Mus musculus with 2 samples.

Results

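The genes described here handle sterol on its way out of the liver cell and through high-density lipoprotein (HDL). They are the biliary sterol transporter subunits Abcg5 and Abcg8, the efflux pumps Abca1 and Abcg1, the HDL receptor Scarb1, the HDL remodelling genes Pltp and Lcat, the endosomal sterol transfer genes Npc1 and Npc2, and the esterifying enzyme Soat2. Members were the probe sets annotated with exactly 1 gene symbol, that symbol being 1 of these 10. This gave 18 probe sets for 9 of the 10 genes, out of 34958 probe sets with 1 symbol for 18194 genes. No probe set carried the symbol Soat2 in the annotation used, and this gene was not analysed here.

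Both groups were ICR mice, an outbred stock, and the tissue was liver. The control group ate the basal diet CRF-1, and the diosgenin group ate it to which 500 ppm of the plant steroid diosgenin had been added, for 4 weeks from 9 weeks of age. Livers were taken at 13 weeks, RNA of 3 mice was pooled for each diet, and each pool was read on 1 Affymetrix array. There is thus no measure of the spread between mice, and no difference below has a test, a standard error or a p-value. The labels give 3 mice per cage, so diet and cage may coincide and cannot then be told apart. A gene called higher or lower below had a higher or lower signal with diosgenin than without.

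Cholesterol leaves the hepatocyte by several doors. ABCG5 and ABCG8 are subunits that pair into 1 transporter in the canalicular membrane and move cholesterol and plant sterols into bile, while ABCA1 loads cholesterol and phospholipid onto apolipoprotein A-I at the sinusoidal side to start HDL, and ABCG1 adds sterol to HDL already formed. SR-BI, the product of Scarb1, takes cholesteryl ester from HDL back into the liver, and PLTP and LCAT remodel HDL in plasma by moving phospholipid and by esterifying cholesterol. NPC2 and NPC1 pass cholesterol from the lysosome lumen to its membrane. Abca1, Abcg1, Abcg5, Abcg8 and Pltp are known targets of the oxysterol receptors LXRα and LXRβ, and diosgenin is known to raise cholesterol secretion into bile in rodents.

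Abcg5 and Abcg8 lie head to head on mouse chromosome 17 and are read away from each other, so these starts share 1 stretch of DNA. In RefSeq on GRCm38.p6 the Abcg5 start and the nearer of 2 Abcg8 starts are 110 bases apart. The promoter windows at these starts, each reaching from 250 bases before the start to 50 after it, overlap by 209 bases. The window of the other Abcg8 start, chr17:84676052-84676351 on the plus strand, does not overlap that of Abcg5 and held no match to any motif searched before its start. Which start the Abcg8 probe set reads was not tested. The stretch is shown because both subunits of the transporter were higher, and that of Abca1, an LXR target that was not higher, is shown beside it. The first sequence is the plus strand of chr17:84683012-84683120, the 109 bases between the starts, with Abcg5 leaving to the left and Abcg8 to the right. The second is the minus strand of chr4:53159896-53160145, the 250 bases before the Abca1 start. Capitals mark matches to the motifs searched, on either strand.

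Abcg5-Abcg8 stretch: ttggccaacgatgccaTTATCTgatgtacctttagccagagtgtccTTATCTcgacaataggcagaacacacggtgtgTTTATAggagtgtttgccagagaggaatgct
Abca1 upstream: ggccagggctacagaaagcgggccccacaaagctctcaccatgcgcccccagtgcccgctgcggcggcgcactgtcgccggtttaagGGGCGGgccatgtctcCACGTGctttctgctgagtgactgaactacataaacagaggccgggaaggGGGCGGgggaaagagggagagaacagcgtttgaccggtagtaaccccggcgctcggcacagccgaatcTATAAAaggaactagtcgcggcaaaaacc

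The motifs searched on both strands were AGGTCA, the core site of many nuclear receptors, and its direct repeat spaced by 1 base, AGGTCANAGGTCA. The repeat spaced by 4 bases, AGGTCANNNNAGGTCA, is the idealised form of an LXR element. Also searched were the E-box, CACGTG, the box bound by factors of the SP family, GGGCGG, the box bound by the factor NF-Y, CCAAT, and the motif found near many starts, TATAAA. The letters AGATAA, a binding motif of GATA factors, were added after the sequences were seen, so their shares below are no test. A match to a repeat also counts as a match to the core site. The Abcg5-Abcg8 stretch held 2 matches to AGATAA, which begin 17 and 47 bases from the Abcg5 start, and 1 to TATAAA. At least 1 AGATAA was found in 3.98% and at least 2 in 0.186% of the 109-base stretches before the 32851 starts in the table, and TATAAA in 5.9%. The 250 bases before Abca1 held 2 matches to GGGCGG, 1 to the E-box and 1 to TATAAA, which 32.7%, 6.02% and 12.4% of all such stretches hold. The core site AGGTCA, which 14% of all 250-base stretches hold, was matched in none of the 7 member windows by its exact letters before the start. Those windows belong to the 6 members in the table: Abcg5, Abcg8 with both its starts, Abca1, Pltp, Lcat and Npc2. Exact repeats are rare, as 0.0335% of all 250-base stretches hold that spaced by 1 base and 0.0152% that spaced by 4. Receptor sites with changed letters were not searched, so the absence of capitals does not show that a stretch lacks an LXR element.

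**Figure D1:**
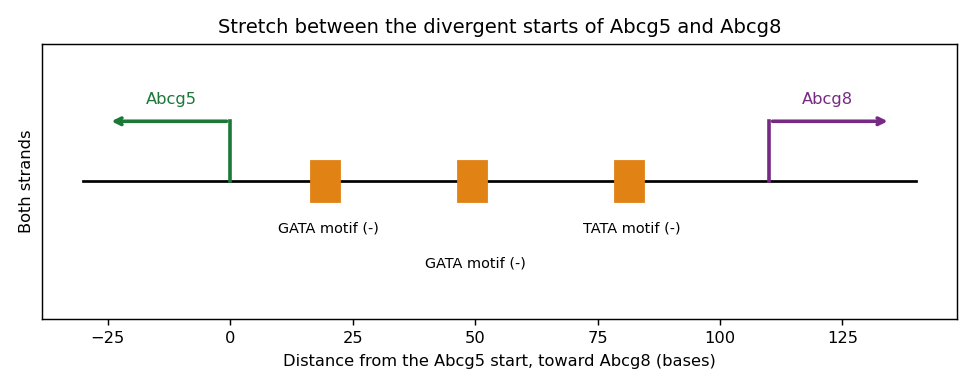
Layout of the stretch between the Abcg5 and Abcg8 starts, with distance from the Abcg5 start in bases on the horizontal axis. Arrows are the directions of reading, and orange boxes are the 2 matches to the GATA motif and the 1 match to the TATA motif, all on the minus strand.

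Transcript levels are given as the deposited signals, linear intensities of 1 probe set, and differences as the log2 ratio of the diosgenin over the control signal. Signals under a floor of 10.7 were set to the floor, and a probe set counted as measured where its mean signal reached 28.4. Of the 18 member probe sets 15 passed, at least 1 for each of the 9 genes. The others were 1 of Abcg1 and 2 of Npc2. Repeat readings within the arrays come only from genes with several probe sets. The log2 ratios of probe sets of 1 gene had a standard deviation of 0.28 over 4079 genes, which holds no spread between mice. It was taken over probe sets of all signal levels above the filter, while ratios spread less at high signal. It is thus a scale for comparison and not the error of the ratio of a bright gene.

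The genes of sterol export went in different directions. Counted at 1.5-fold, 1 of the 15 member probe sets was higher, that of Abcg5, and 0 were lower, where 3.25% and 4% of all 16259 probe sets above the filter were. At 1.2-fold, 3 were higher, those of Abcg5 and Abcg8 and 1 of Npc2, and 4 were lower, all 3 of Scarb1 and 1 of Pltp. The background at 1.2-fold was 15.6% higher and 16.6% lower. Among the brightest 25% of probe sets, which hold 11 of the 15, the background was 8.51% and 8.61% at 1.2-fold and 1.3% and 1.28% at 1.5-fold. At 2-fold 0 members were called in either direction, beside 0.603% and 0.812% of all probe sets. The member probe sets had a median log2 ratio of −0.04 and all probe sets above the filter one of −0.0034.

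**Figure D2:**
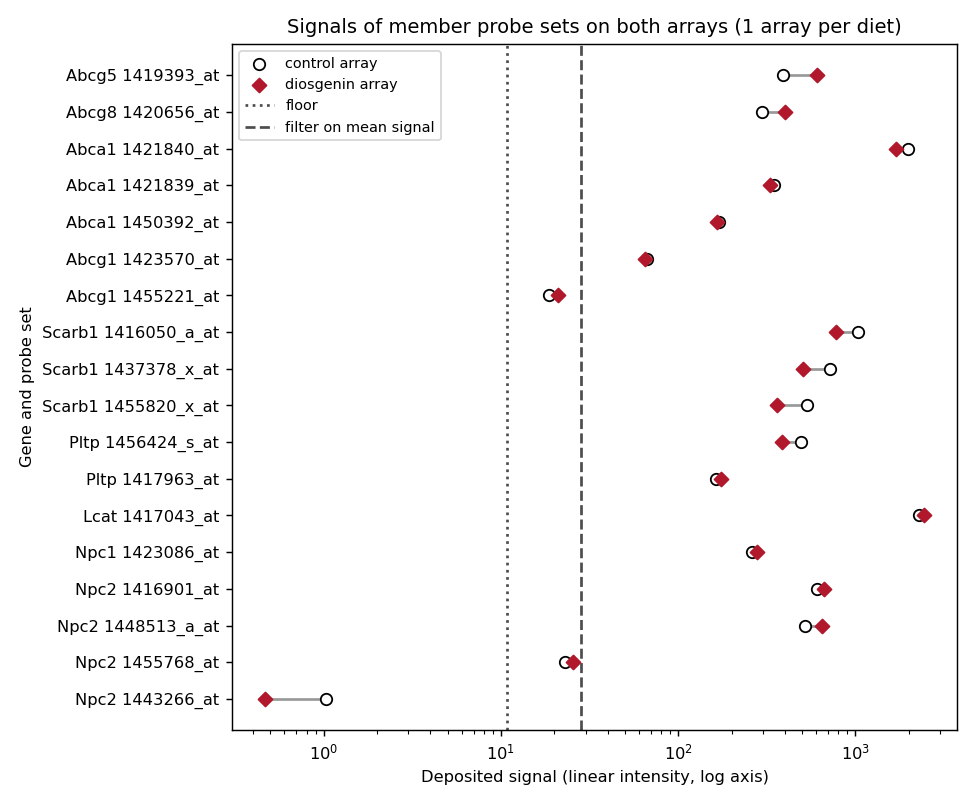
Deposited signal of each member probe set (linear intensity, log axis) on the control array (open circles) and the diosgenin array (red diamonds), 1 array per diet, with the floor dotted and the filter on mean signal dashed. Abcg5 and Abcg8 lie to the right on the diosgenin array and all 3 Scarb1 probe sets to the left.

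Both subunits of the biliary sterol transporter were higher. Abcg5, read by probe set 1419393_at, had a signal of 392 without and 604 with diosgenin. This is a log2 ratio of 0.62, or 1.54-fold. Among the 4065 probe sets of the brightest 25%, 45 had a ratio at least as high, Abcg5 itself included, or 1.11%. Abcg8, read by 1420656_at, had 298 and 403, a log2 ratio of 0.44 or 1.35-fold, and 113 of the 4065 were as high, or 2.78%. The ratios of the 2 genes differed by 0.19, less than the standard deviation between probe sets of 1 gene. Each gene has a single probe set here, so neither value has a second reading of its own transcript.

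The table of starts holds 290 divergent pairs whose starts lie at most 200 bases apart and whose genes both passed the filter. Both genes were at least 1.2-fold higher in 7 of these pairs, 2.41%, Abcg5 and Abcg8 among them, and both were at least 1.2-fold lower in 10. Over all 290 pairs the ratios of both genes had the same sign in 50.3%. In 3 pairs, this one included, the lower of both ratios was at least that of Abcg8.

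The efflux pumps toward HDL had ratios under the standard deviation between probe sets of 1 gene. Abca1 had 3 probe sets. Probe set 1421840_at had signals of 1977 and 1697, a log2 ratio of −0.22 or 1.17-fold lower, and 478 of the 4065 brightest probe sets, 11.8%, were as low. Probe set 1421839_at had 349 and 328, and 1450392_at 171 and 166, with log2 ratios of −0.09 and −0.04. All 3 were on the lower side, and each differed by less than 0.28. Their range of 0.18 was as wide or wider in 77.1% of the 988 genes with 3 probe sets above the filter. Abcg1 was dim in this tissue, at 66.3 and 64.6 by 1423570_at, a log2 ratio of −0.04. Its other probe set, 1455221_at, was under the filter at 18.7 and 21.1. Abca1 and Abcg1, known LXR targets like Abcg5 and Abcg8, thus showed no difference of the size seen for Abcg5, and the difference between these genes was not tested.

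**Figure D3:**
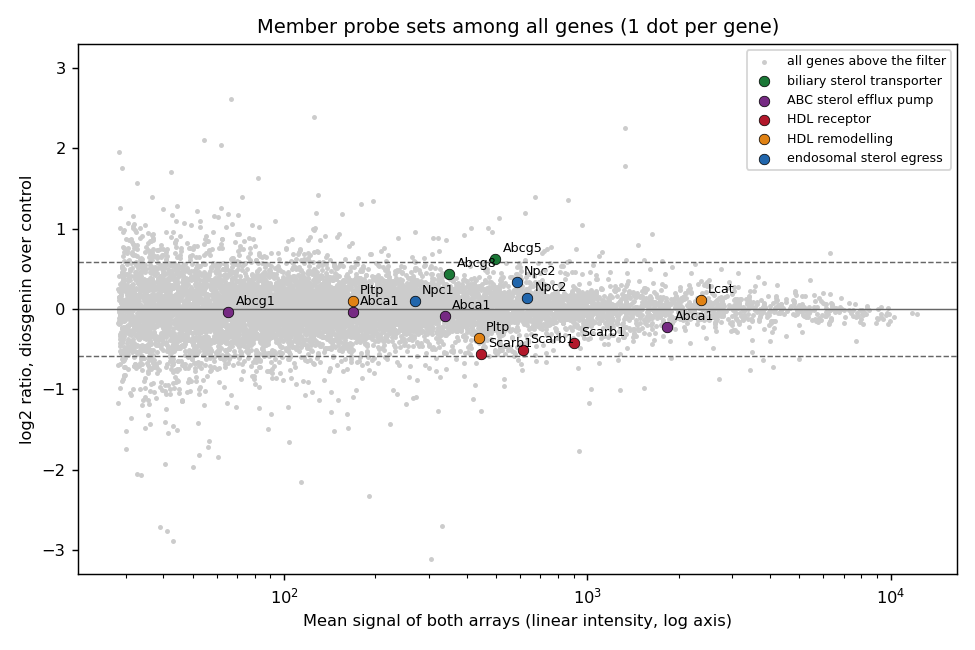
Log2 ratio of diosgenin over control against the mean signal of both arrays (linear intensity, log axis) for all genes above the filter (grey, 1 representing probe set each) and for the 15 member probe sets (coloured by role), with dashed lines at 1.5-fold. The spread narrows with signal. Abcg5 lies above the upper line, and the Scarb1 probe sets lie just inside the lower one.

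The HDL receptor Scarb1 was lower by each of its 3 probe sets. Probe set 1416050_a_at had 1034 without and 773 with diosgenin, 1437378_x_at had 719 and 505, and 1455820_x_at had 532 and 361. The log2 ratios were −0.42, −0.51 and −0.56, with a mean of −0.50 ± 0.07 (SD over 3 probe sets of the same 2 pools), or 1.41-fold lower. Of the 4065 probe sets in the brightest 25%, 137, 87 and 60 had a ratio at least as low. The probe sets differed among themselves by 0.14 at most, and 14.7% of genes with 3 probe sets had as narrow a range. The first reads several transcripts of the gene by its class, and the other two belong to the class in which some probes can also bind other transcripts. No Scarb1 probe set was of the plain class, so no value remained when such probe sets were left out. Pdzk1, the adaptor that holds SR-BI at the hepatocyte membrane, had signals of 472 and 419.5 and was named after its value was seen.

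Sinusoidal endothelial cells line the liver vessels and also carry SR-BI, and their markers were lower with diosgenin in 9 of 10 cases. Over all 9732 genes above the filter, to be set beside each such count below, 4769 were higher and 4963 lower. At 1.2-fold 6 of the 10 endothelial markers were lower and 0 higher, beside 15.3% and 14.5% of all genes. The median of the endothelial markers was −0.29 (log2 ratio), and their summed signal was 2460 without and 1811 with diosgenin. Clec4g had 745 and 464 and Fcgr2b 571 and 380, and none of the 10 was at or below the floor on both arrays. In a pool of whole liver, fewer cells of a type and less RNA per cell cannot be told apart. The part of endothelial RNA in the Scarb1 ratio was not tested. Hepatocyte markers were at a median of 0.02, with 6 of 10 higher and 4 lower and summed signals of 71301 and 70087. All 10 hepatocyte markers passed the filter, which fits the labelled tissue, among them Alb at 9517 and 8429 and Cps1 at 5532 and 6085.

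The probe sets of Pltp, the phospholipid transfer protein, disagreed. Probe set 1456424_s_at had 493 and 385, a log2 ratio of −0.36 or 1.28-fold lower, and is of the class shared between transcripts. Probe set 1417963_at had 163 and 174, a log2 ratio of 0.10. Their range of 0.46 was reached or passed by 17.1% of the 2509 genes with 2 probe sets above the filter, and the direction of Pltp is therefore not settled by these arrays. Lcat, which esterifies cholesterol on HDL, had 2273 and 2452 by 1417043_at, a log2 ratio of 0.11. A ratio as high was found in 26.1% of the brightest 25% of probe sets, to which it belongs.

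The lysosomal genes had ratios above 0 by each probe set above the filter, and 1 of these 3 ratios, of Npc2, passed 1.2-fold. Npc1, the membrane protein of the pair, had 259.7 and 278 by 1423086_at, a log2 ratio of 0.10, and 32.2% of the 4065 probe sets with mean signals of 122 to 307 were as high. Npc2, the soluble partner, had 604 and 661 by 1416901_at and 516 and 652 by 1448513_a_at, with log2 ratios of 0.13 and 0.34. Probe set 1455768_at was under the filter at 23.0 and 25.6, and 1443266_at was under the floor on both arrays, at 1.03 and 0.466 and gives no ratio. Of the brightest 25% of probe sets, 22.5% were as high as the first Npc2 ratio above and 5.09% as high as the second, which alone was above 0.28. Npc2, Abca1, Abcg1 and Pltp are also expressed by macrophages. Of 12 markers of Kupffer cells and macrophages, all above the filter and none at or below the floor on both arrays, 10 were higher and 2 lower. Their median log2 ratio was 0.20 and their summed signals were 2924 and 3284. At 1.2-fold 3 of the 12 were higher, Marco among them, and 0 lower, beside 14.5% and 15.3% of all genes. Lyz2 had 149 and 192. Marco had 13.3 and 45.1, near the floor on the control array. Its mean signal of 29.2 passed the filter only through the diosgenin array, and its other probe set did not pass. The part of macrophage RNA in the Npc2 ratio was not tested.

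The other genes of these pathways, in 7 lists, went in both directions. Of 64 genes listed 59 had a probe set and 55 passed the filter, of which 26 were higher and 29 lower. Their median log2 ratio was −0.01, beside −0.0053 over all 9732 genes above the filter. At 1.5-fold 1 was higher, Lpl, and 0 were lower, where 2.84% and 3.61% of all genes were. At 1.2-fold 4 were higher and 4 lower, beside 14.5% and 15.3%, and at 2-fold 0 were either, beside 0.555% and 0.853%. Many of the 55 had mean signals in the range of the brightest 25% of probe sets. Of those probe sets, 8.51% were higher and 8.61% lower at 1.2-fold, and 1.3% and 1.28% at 1.5-fold. By the same choice of 1 probe set per gene, 2 of the 9 members were higher and 2 lower at 1.2-fold, and their median was 0.10.

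Receptors and partners that control these genes divided into 5 higher and 3 lower (median log2 ratio 0.03). The bile acid induced repressor Nr0b2 (SHP) had 900 and 699.8, a log2 ratio of −0.36, by its single probe set. The LXR partner Rxra had 971 and 1112, a log2 ratio of 0.19, and Srebf2, which drives cholesterol synthesis genes, 139 and 161, one of 0.22. The other probe set above the filter gave 0.13 for Rxra and 0.38 for Srebf2. Nr1h3, which encodes LXRα and was named after its value was seen, had 333 and 339. Other LXR targets divided into 4 higher and 2 lower (median log2 ratio 0.07). Srebf1, also a known LXR target, was counted among the receptors and partners instead. It had 1102 and 979, a log2 ratio of −0.17, and was named after its value was seen. Lipoprotein lipase Lpl had 235 and 378, a log2 ratio of 0.69, and its second probe set gave 0.74. The anion transporter Abcc3 was at 0.22, and the desaturase Scd1 at −0.17, with −0.45 by its other probe set.

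HDL proteins divided into 5 higher and 5 lower (median log2 ratio −0.0084). Apom, the HDL carrier of sphingosine phosphate, had 2080 and 2647, a log2 ratio of 0.35 with 0.34 by its second probe set. Apoa4 was at −0.31 and −0.49 by its 2 probe sets and Apoa2 at −0.18. HDL lipases and receptor adaptors divided into 3 higher and 4 lower (median log2 ratio −0.02). The purinergic receptor P2ry13 was at 0.49 on dim signals of 24.5 and 34.3, the endothelial lipase Lipg at −0.25 and the scavenger receptor Cd36 at −0.24. The mean signal of P2ry13, 29.4, passed the filter of 28.4 only through the diosgenin array. P2ry13 is counted among the 3 higher here and among the other sterol genes at least 1.2-fold higher.

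Canalicular lipid partners were 3 higher and 1 lower of the 4 above the filter, with a median of 0.11. The largest ratio, 0.35, was that of annexin Anxa6, a membrane binding protein that is not particular to the canaliculus. The phospholipid flippase Atp8b1 was at 0.22 and the bile salt export pump Abcb11 at −0.09. Intracellular sterol transfer genes divided into 6 higher and 10 lower (median log2 ratio −0.02). Among them caveolin Cav1 was at −0.35, the oxysterol binding protein Osbp at −0.28 and its relative Osbpl9 at 0.20, whose 3 other probe sets above the filter ranged from −0.46 to 0.30. The list of oxysterol making enzymes also holds Cyp7b1 and Hsd3b7, which convert oxysterols further. It divided into 0 higher and 4 lower (median log2 ratio −0.09), and Cyp46a1 and Cyp7b1 had the largest ratios, −0.17 and −0.16, followed by Hsd3b7 at −0.02. The list thus gives no direction for the making of oxysterols alone.

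**Figure D4:**
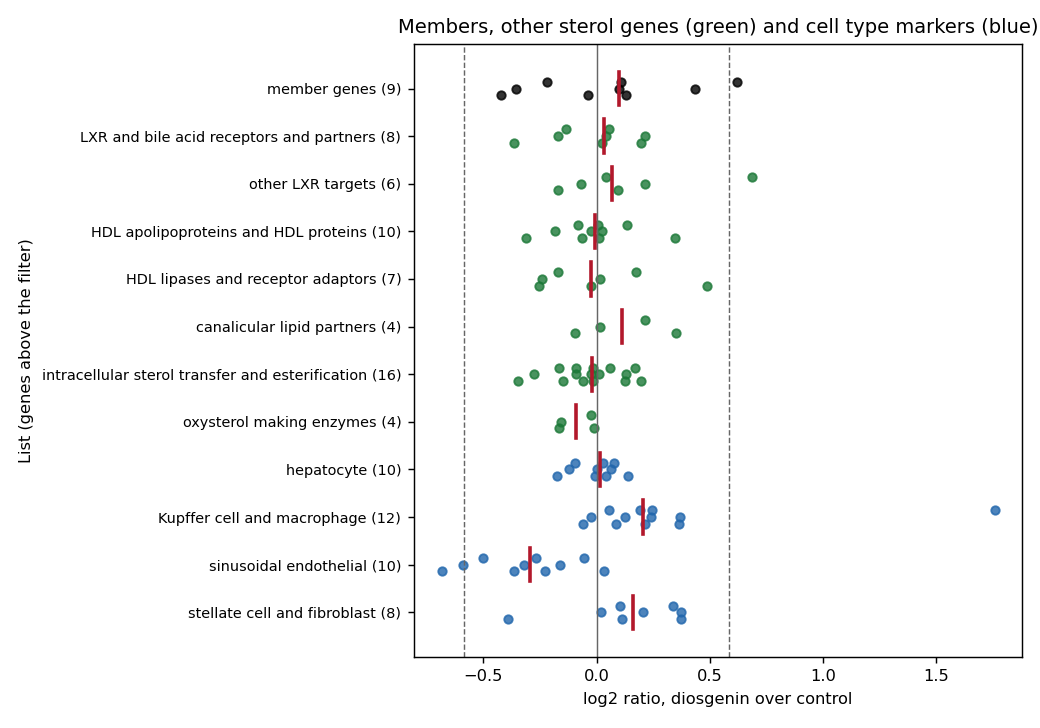
Log2 ratio of diosgenin over control for the 9 member genes (black), other sterol genes by list (green) and cell type markers by list (blue), 1 representing probe set per gene above the filter, lists with at least 3 such genes, number in parentheses. Red bars are medians and dashed lines 1.5-fold. Endothelial markers centre at −0.29 and macrophage markers at 0.20, while the other sterol lists centre near 0.

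Stellate cell and fibroblast markers divided into 7 higher and 1 lower (median log2 ratio 0.16), with summed signals of 2732 and 3242. Dcn had a log2 ratio of 0.37 and Pdgfrb one of −0.39. At 1.2-fold 3 of these markers were higher and 1 lower, beside 14.5% and 15.3% of all genes. Of the biliary epithelial markers 2 of 6 passed the filter, Tff3 at 24.3 and 99.9 and Sox9 at 42.0 and 26.1, and Krt7 and Cftr were at or below the floor on both arrays. The filter is on the mean of both arrays, and Tff3 and Sox9 each had 1 signal under it. One marker each passed for lymphocytes (Cd8a, 31.2 and 31.1), erythroid cells (Alas2, 1309 and 1123) and enterocytes (Fabp2, 834 and 743). Alas2 and Fabp2 can also come from liver tissue itself. Pancreatic acinar markers had Cela1 at 1212 and 1150 and Cela3b at 38.2 and 44.2 above the filter, and adipocyte markers had 0 of 3.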

How the data were processed

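Liver RNA of 2 pools, each from 3 mice, was read on 2 arrays. Per the labels' protocols, 5 µg of pooled total RNA was labelled with biotin. The deposited values are array intensities on a linear scale, 1 per probe set. The submitters' processing notes name GCOS. How signals were summarised, the scaling target and detection calls are not stated there. The 2% trimmed mean was 96.9 on each array, and the median signals were 17.1 and 17.0. The number of arrays limits the precision.

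Of 45101 probe sets, 34958 had 1 gene symbol in the platform annotation, 932 had several and 9211 had none, and only the first were used. The floor was the 40th percentile of all signals and the filter the 60th percentile of probe set means. Where 1 value per gene was needed, the probe set with the highest mean signal gave it. The brightest 25% were taken over the 16259 probe sets above the filter. All 10 members were named with every probe set. From each other sterol list up to 3 genes, and from each marker list up to 2, were named by the largest absolute log2 ratio among genes above the filter with both signals above the floor. Members, lists and settings were chosen with earlier results of these data known. Promoter sequences are from RefSeq, GRCm38.p6. Protein sequences were not used here. The ratio and counting steps were tested on simulated data. Python 3.11.15, pandas 2.3.3, numpy 2.4.6 and matplotlib 3.10.9 were used.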

Additional observations from a re-analysis of the deposited data

How the results depend on the processing

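Alternatives were a floor at the 20th or 60th percentile, no filter or one at the 75th, the median of a gene's probe sets, leaving out shared and alternative probe sets, centring on the median gene, quantile normalization, and counting at 1.2-fold or 2-fold. No paired analysis was possible because each diet had 1 array, and no array could be left out for the same reason. A value with no test counts as moved where it shifted by at least the standard deviation between probe sets of a gene. Of 164 values recomputed, 157 stayed within that limit or, for counts, within 1.5 times. This count includes values that an alternative could not change, such as those of genes with 1 bright probe set under another floor or filter. Without shared and alternative probe sets the Pltp log2 ratio was 0.10. Counting at 1.2-fold gave 3 member probe sets higher and 4 lower and 4 other sterol genes higher and 4 lower, and counting at 2-fold gave 0 higher of each. The Abcg5 log2 ratio ranged from 0.62 to 0.63, that of Abcg8 stayed at 0.44, that of Scarb1 ranged from −0.51 to −0.42 and that of Npc2 from 0.13 to 0.23. Abcg5 and Abcg8 each have 1 probe set, of the plain class and well above each floor and filter. Only centring and quantile normalization could change their ratios, so the narrow ranges are no measure of precision. Scarb1 has no value without shared and alternative probe sets, and Abcg1 none with the filter at the 75th percentile. Counts of probe sets have no value under the median of probe sets.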
